A study of Sus scrofa with 36 samples.

Results

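Chaperones that fold proteins in the cytosol and in the mitochondria, together with the factors that steer them, were followed in the pig thyroid gland before and after a short exposure to a hot room. The list named 47 genes of this kind outside the HSP70 family. Members were the array probes whose gene name, or whose description in round brackets, was one of these names, and this found 111 of the 60305 probes of the array, for 40 of the 47 genes. BAG2, BAG5, DNAJA1, HSPB1, HSPB2, ST13 and STIP1 were not found in this way. Matching older names and accessions to current symbols added 24 probes, among them 2 for HSPB1 and 1 for HSPB2, so that 42 genes had a probe. BAG2, BAG5, the J-domain protein DNAJA1, and the adaptors ST13 and STIP1, which bring HSP70 and HSP90 together, were not analysed here.

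The thyroids came from 36 castrated male pigs in 6 groups of 6, with 1 single-colour array per pig. All entered the climatic room when 11 weeks old and had 10 days to adapt and 9 days at 24 °C. The breeds were Creole (CR), Large White (LW) and their F1 cross (F1), and each breed was slaughtered either at 24 °C or after the hot period. The sample labels give 30 °C for the hot groups and the growth protocol gives 32 °C for 5 days, and the groups are called 30 °C here. By the methods of the study the hot pigs were slaughtered after 4 or 5 days of exposure. Pigs of the hot groups were also slaughtered later than those at 24 °C, so that temperature and time of slaughter cannot be told apart. Litter, pen and slaughter day, which the study had, are not in the labels and were not used here. Pigs of a breed came from a few litters and shared pens, yet the fits treat them as independent. The standard errors and p values below, above all between breeds, may therefore be too small.

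Molecular chaperones bind unfolded proteins and help them reach their shape. HSP90 matures signalling proteins in a cycle run by partner proteins, small HSPs hold unfolding proteins, J-domain proteins hand clients to HSP70, and BAG proteins release them. The chaperonins are closed chambers, TRiC with its TCP1 and CCT subunits in the cytosol and HSPD1 with its lid HSPE1 in the mitochondria. On acute heat shock the factor HSF1 switches many of these genes on, which makes them a usual readout of thermal stress. The thyroid also relies on folding because it makes thyroglobulin in large amounts, although that occurs in the endoplasmic reticulum, whose chaperones are not among these genes.

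Values are log2 median pixel intensities, quantile-normalized between arrays. A probe was tested when it was well above background on at least 5 of 6 arrays of a group, which held for 46222 probes, 108 of them members, from 39 genes. Where a gene had several probes, the tested one found by the name rule with the highest mean stood for it, and the others are given as counts. Probes found by current symbols stood for a gene only where the rule gave none, although some were brighter. The HSP90AB1 probe used ran from 6.04 to 6.72, and A_72_P051491 from 15.84 to 16.41. For HSPB6 the probe used ran from 6.26 to 7.36, and A_72_P089886 from 8.26 to 9.28. A call means an adjusted p under 0.05 in limma with the Benjamini-Hochberg method over all 46222 probes. Between 72.8% and 80.3% of spots were well above background on each array, and arrays correlated with each other at 0.983 to 0.995. Of the 13 follicular cell markers, 9 were tested and their mean log2 level was at least 13.44 in every pig. A position of each pig between CR (-1) and LW (1), from the 500 probes that best separated the other pigs, was at most -0.45 in the 12 CR pigs, lay between -0.36 and 0.37 in the F1 pigs and was at least 0.52 in the LW pigs, so that the breeds did not overlap.

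Probes of 1 gene are not independent readings. Probes were 60 bases long, and among the member probes 41 pairs of the same gene shared a stretch of at least 20 bases, of which 3 pairs were identical. One pair lay on opposite strands: the HSP90AB1 probe that the name rule found holds the reverse complement of 30 bases of another HSP90AB1 probe, which the files list under the older name HSPCB. The stretch, whole and in capitals because every base is shared, is given as each probe has it.
HSP90AB1 probe O14652: AATAAAACCACTAGACATCAGCAGAGGAGA
HSP90AB1 probe A_72_P051491: TCTCCTCTGCTGATGTCTAGTGGTTTTATT
Whole probes are shown in lower case for genes on which the breed comparison or the spread among pigs turned. The files give these probes no genome position, so none is stated.
HSP90AA1 probe A_72_P700356: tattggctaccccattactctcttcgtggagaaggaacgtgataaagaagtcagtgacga
HSP90AA1 probe A_72_P669304: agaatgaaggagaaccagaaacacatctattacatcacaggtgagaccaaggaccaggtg
FKBP4 probe A_72_P033311: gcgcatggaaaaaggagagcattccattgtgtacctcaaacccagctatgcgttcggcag
FKBP4 probe O14640: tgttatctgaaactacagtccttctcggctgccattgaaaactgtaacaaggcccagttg
TRAP1 probe A_72_P063446: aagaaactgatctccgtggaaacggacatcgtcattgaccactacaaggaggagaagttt
CCT5 probe O14583: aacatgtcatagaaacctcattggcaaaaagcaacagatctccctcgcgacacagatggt
HSPE1 probe O8477: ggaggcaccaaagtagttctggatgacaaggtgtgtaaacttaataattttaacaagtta

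The first question was whether chaperone transcripts moved after the hot period. No member was called between 30 °C and 24 °C over the breeds, on the gene's probe or on any of the 108 member probes, against 1.18% of all tested probes called. At an unadjusted p under 0.05 there was 1 gene of 39, and 6 of the 108 probes, against 9.74% of all tested probes. Of the 39 genes 24 were higher and 15 lower at 30 °C, with a median log2 difference of 0.01, as for all tested probes. The 95% intervals of all 39 genes lay within 0.5 log2 units of 0, with limits at -0.27 and 0.41. The intervals do not show that the genes were unchanged.

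**Figure D1:**
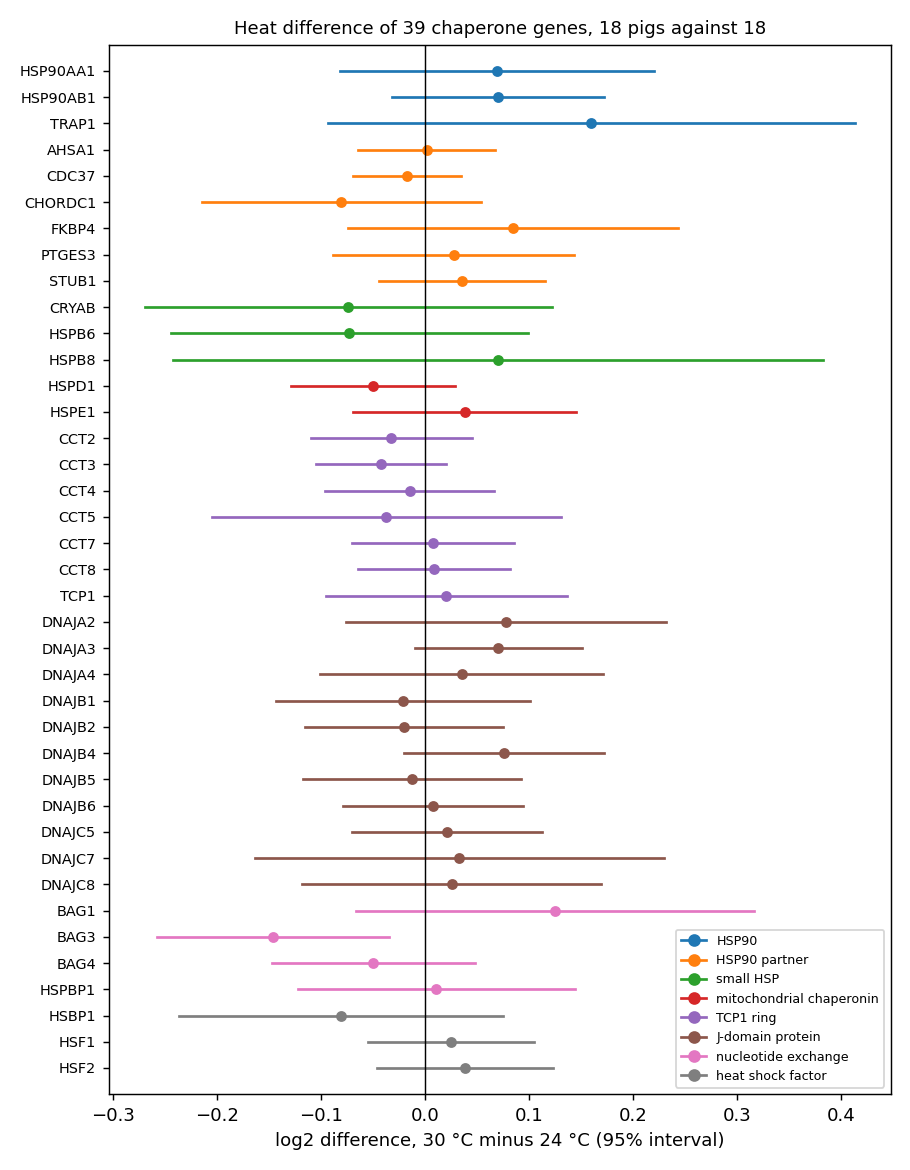
Log2 difference between 18 pigs at 30 °C and 18 at 24 °C (horizontal axis) for the 39 tested chaperone genes (vertical axis), coloured by role, with points for the estimate and lines for the 95% interval. Only the line of BAG3 does not cross 0, and no gene was called.

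The gene nearest to a call was BAG3, a co-chaperone that steers damaged proteins to autophagy. Its log2 level was lowest at 11.78, had a median of 12.03 and was highest at 12.39 at 24 °C, and ran from 11.59 over a median of 11.91 to 12.33 at 30 °C. The groups overlapped, with 13 of the 18 pigs at 30 °C below the median of those at 24 °C. The difference was -0.15 ± 0.05 (SE) on the log2 scale, with an unadjusted p of 0.012 and an adjusted p of 0.29 in limma. Over the breeds all 6 BAG3 probes were lower at 30 °C, 4 of them at an unadjusted p under 0.05, and 2 of the 6 share 57 bases. In LW alone the 6 probes ran from -0.07 to 0.18, the latter on A_72_P120811 with an unadjusted limma p of 0.031. On the probe used the difference was -0.12 in CR, -0.27 in F1 and -0.05 in LW. Within each of the 4 slides that allow an estimate, the difference ran from -0.35 to -0.002.

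The other genes with small p values moved less. DNAJA3, a J-domain protein of mitochondria, differed by 0.07 ± 0.04 (SE), with a limma adjusted p of 0.60, with medians of 12.32 at 24 °C and 12.35 at 30 °C. DNAJB4, a cytosolic J-domain protein measured at the dim end, with medians of 5.85 and 5.95, differed by 0.08 ± 0.05 (SE), with a limma adjusted p of 0.66. CCT3, a subunit of TRiC, differed by -0.04 ± 0.03 (SE), with a limma adjusted p of 0.74. In each of these genes the groups overlapped.

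The HSP90 genes and HSF1 did not pass the test either. HSP90AA1, the inducible cytosolic HSP90, ran from 14.67 over a median of 15.19 to 15.49 at 24 °C and from 14.69 over 15.24 to 15.56 at 30 °C, a difference of 0.07 ± 0.07 (SE) on its brightest probe. Of its 8 probes 3 were higher and 5 lower at 30 °C, so that the sign depends on the probe. In F1 they ran from -0.36 on A_72_P232852 to 0.27 on the brightest, with unadjusted limma p values of 0.0022 and 0.038. In CR and in LW A_72_P232852 differed by -0.04. HSP90AB1, the constitutive form, differed by 0.07 ± 0.05 (SE) on the opposite-strand probe, whose medians were 6.31 and 6.37. The probe whose reverse complement it holds in part ran from 15.84 to 16.41, and whether the dim probe reads the HSP90AB1 transcript was not tested. The probes listed under HSPCB differed with heat by -0.06 to 0.20 in CR and by -0.20 to 0.02 in F1, and none was called. HSF1, the master regulator of the heat shock response, had medians of 11.46 and 11.51 and a difference of 0.02 ± 0.04 (SE).

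The chaperonin of mitochondria was likewise close to level. HSPD1, the chamber, had medians of 13.35 and 13.35 at 24 °C and 30 °C and differed by -0.05 ± 0.04 (SE). Of its 21 probes 20 were lower at 30 °C and none was called, and many of these probes overlap each other. HSPE1, the lid, differed by 0.04 ± 0.05 (SE). DNAJB1, the J-domain partner of HSP70 in the cytosol, was lower at 30 °C over the breeds on all 5 probes, by 0.02 to 0.13 log2 units in size. Of these, 1 probe had an unadjusted p under 0.05. The breeds did not share this sign: the brightest probe differed by -0.18 in CR, -0.03 in F1 and 0.14 in LW. In LW the 5 probes ran from -0.02 to 0.20. Among the small HSPs, CRYAB differed by -0.07 ± 0.10 (SE), and HSPB1, found by its older name Hsp27, by 0.04 ± 0.08 (SE).

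Within the breeds no member was called. In CR 0.387% of all tested probes were called and 5.75% had an unadjusted p under 0.05, against 1 of the 39 genes, DNAJA3. In F1 0.383% were called and 10.6% had an unadjusted p under 0.05, against 5 of the 39 genes. FKBP4, HSP90AA1 and DNAJC5 were higher there, at 0.45, 0.27 and 0.18, and BAG3 and CCT2 lower, at -0.27 and -0.20. In LW 0% were called and 4.01% had an unadjusted p under 0.05, against 1 of the 39 genes, HSP90AB1, on its dim opposite-strand probe, at 0.21. The 6 HSP90AB1 probes found by current symbols differed by 0.03 to 0.09 in LW, with unadjusted limma p values from 0.39 to 0.74. The F test of the interaction between breed and temperature in limma called 0% of all probes and no member, with 4 of the 39 genes and 4.67% of all probes at an unadjusted p under 0.05. The smallest of these p values was that of FKBP4, an HSP90 partner that binds steroid receptors, at 0.0018, with an adjusted p of 1.00. In F1 its brightest probe differed by 0.45 ± 0.12 (SE), with a limma adjusted p of 0.079, and without replicate 4 of F1 at 24 °C by 0.51, with a limma adjusted p of 0.034. Its other 2 probes differed there by 0.08 and 0.03, with unadjusted limma p values of 0.56 and 0.77, so that the value is that of 1 probe.

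The second question was how the breeds differed. Between LW and CR 6 of the 39 genes were called, 5 higher in LW and 1 lower, which is 15.4%, against 12.9% of all tested probes. Over the 108 member probes 30 were called, or 27.8%, but these are weighted by the genes with many probes. The median log2 difference of the genes was 0.06, against 0.00 for all tested probes, and 27 genes were higher in LW and 12 lower. The groups overlapped in all 39 genes, as in nearly all tested probes, of which 0.279% had no overlap between LW and CR.

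**Figure D2:**
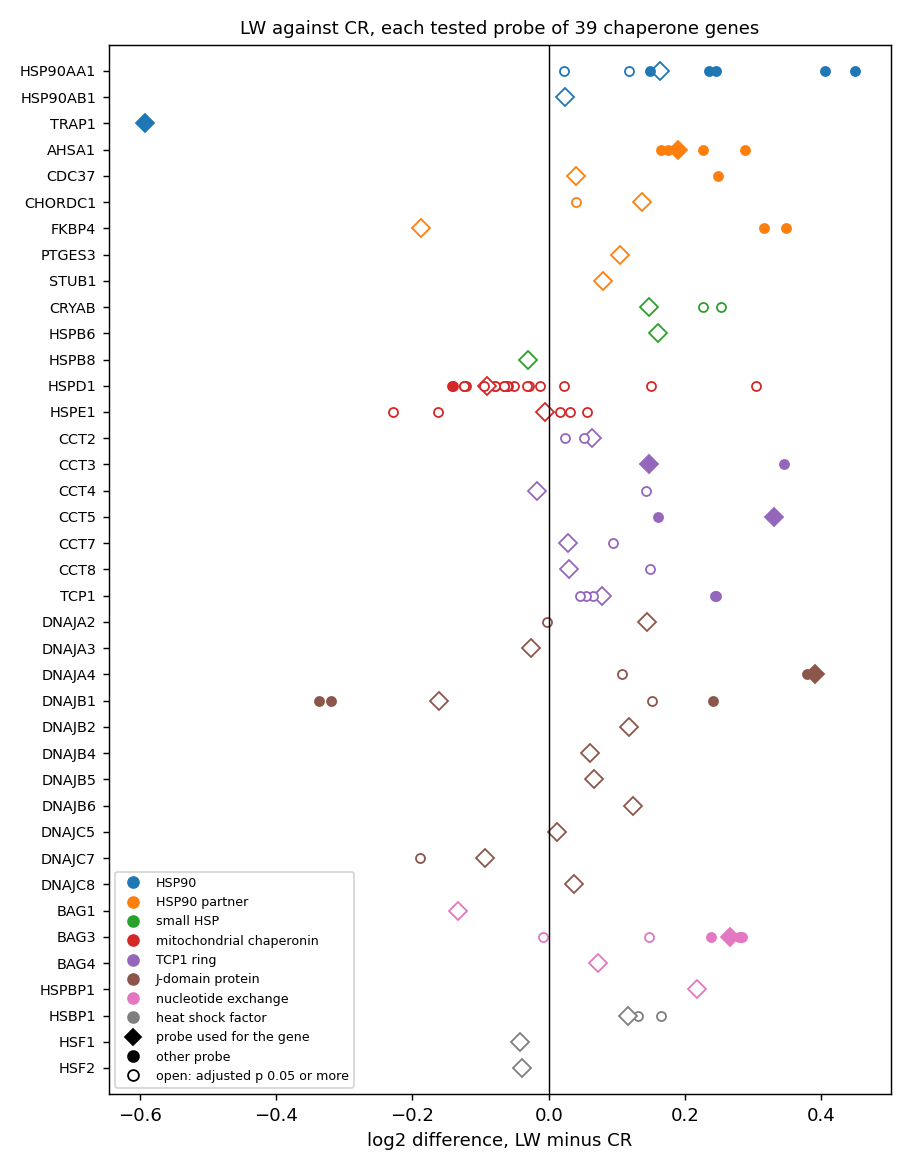
Log2 difference between 12 LW and 12 CR pigs (horizontal axis) for each tested probe of the 39 chaperone genes (vertical axis), coloured by role, with diamonds for the probe used and filled symbols for calls. All 5 AHSA1 probes are filled on the right, whereas DNAJB1 has filled symbols on both sides of 0.

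AHSA1, which speeds the ATP cycle of HSP90, was higher in LW. Its log2 level ran from 14.02 over a median of 14.06 to 14.24 in CR and from 14.11 over a median of 14.29 to 14.42 in LW. All 12 LW pigs lay above the CR median and 7 above the highest CR pig. The difference was 0.19 ± 0.04 (SE), with a limma adjusted p of 0.0012, and all 5 AHSA1 probes were called, with differences from 0.16 to 0.29. Within the slides it ran from 0.14 to 0.24.

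TRAP1, the HSP90 of mitochondria, was the member lower in LW. It ran from 9.23 over a median of 9.84 to 10.11 in CR and from 8.63 over a median of 9.25 to 9.94 in LW. The groups overlapped, with 11 of 12 LW pigs below the CR median. The difference was -0.59 ± 0.15 (SE), with a limma adjusted p of 0.0077, and it was below 0 within each of the 4 slides. It rests on a single tested probe, since the other TRAP1 probe was not well above background.

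DNAJA4, a J-domain protein of the cytosol, was higher in LW and in F1 than in CR. It ran from 10.38 over a median of 10.74 to 11.07 in CR and from 10.91 over a median of 11.11 to 11.43 in LW, with all 12 LW pigs above the CR median. The difference was 0.39 ± 0.08 (SE), with a limma adjusted p of 0.0013. Of its 3 probes, the 2 that were called are identical in sequence, and the third differed by 0.11. BAG3 was higher in LW by 0.27 ± 0.07 (SE), with a limma adjusted p of 0.0067, with medians of 11.85 in CR and 12.10 in LW and all 12 LW pigs above the CR median. Of its 6 probes 4 were called.

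**Figure D3:**
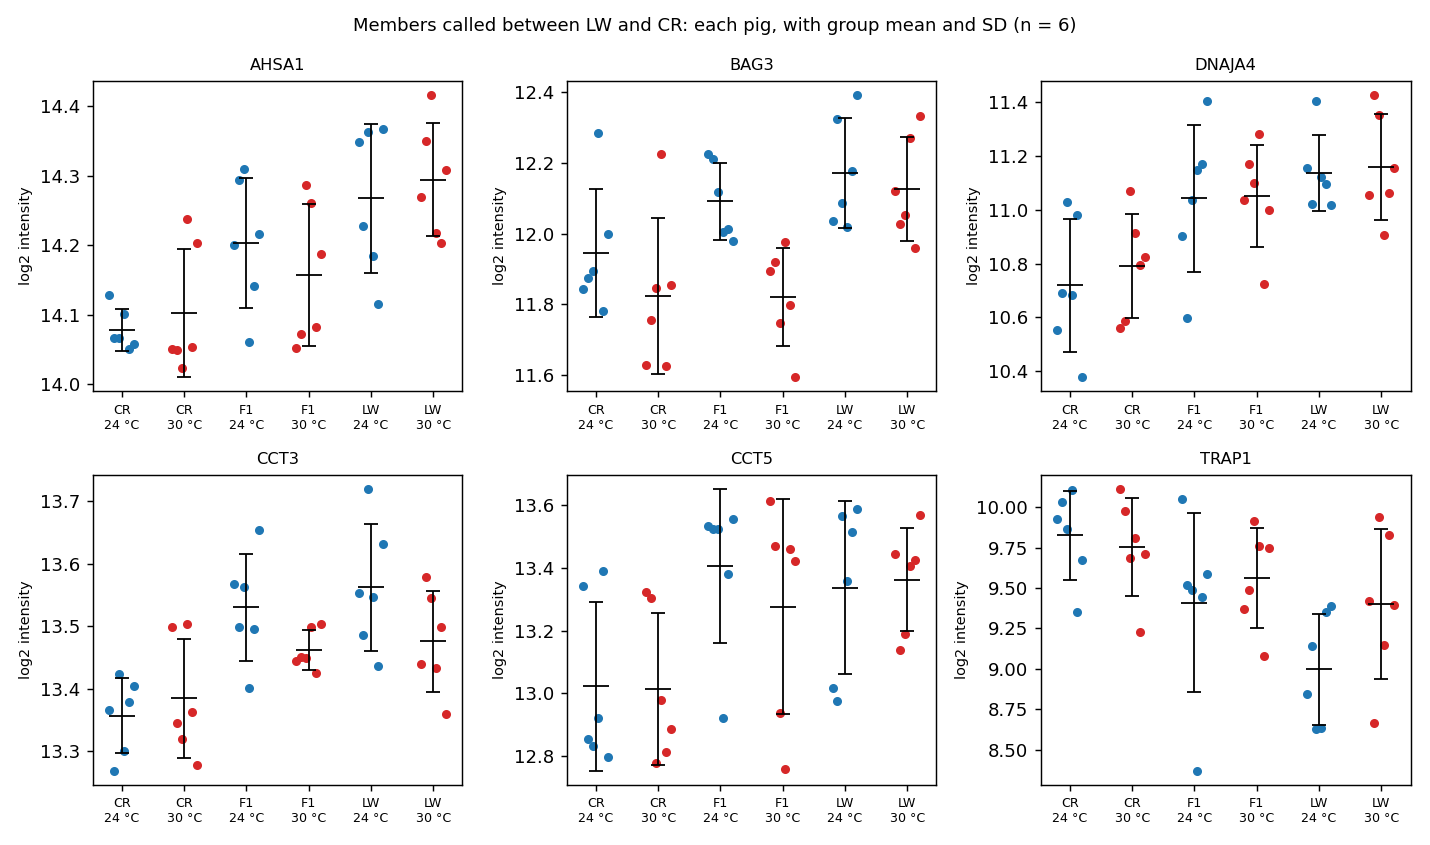
Log2 intensity (vertical axis) of each pig in the 6 groups (horizontal axis, blue at 24 °C and red at 30 °C) for the 6 members called between LW and CR, with the group mean and SD (n = 6). LW pigs sit above most CR pigs in AHSA1, BAG3, DNAJA4, CCT3 and CCT5 and below most in TRAP1.

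Of the 7 subunits of TRiC among the members, 6 were higher in LW and 2 were called. CCT3 had medians of 13.36 in CR and 13.52 in LW and differed by 0.15 ± 0.04 (SE), with a limma adjusted p of 0.0070, and its second probe was called too, at 0.35. CCT5 ran from 12.78 over a median of 12.90 to 13.39 in CR and from 12.98 over 13.42 to 13.59 in LW, with all 12 LW pigs above the CR median. The difference was 0.33 ± 0.10 (SE), with a limma adjusted p of 0.026, and 0.16 on its second probe, also called. With arrays scaled on their 75th percentile in place of quantile normalization, neither gene was called, at adjusted p values of 0.085 for CCT3 and 0.058 for CCT5. The other subunits, TCP1, CCT2, CCT4, CCT7 and CCT8, were not called on the probe used, although 2 overlapping probes of TCP1 were, at 0.24 and 0.25.

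In several genes the choice of probe decided the call. HSP90AA1 differed by 0.16 ± 0.09 (SE) on its brightest probe, with a limma adjusted p of 0.26, whereas 5 of its 8 probes were called, all 8 were higher in LW, and the probe A_72_P669304 differed by 0.45. On that probe the median was 12.08 in CR and 12.51 in LW. Under the older name HSPCB, 2 overlapping HSP90AB1 probes of 6 were called, at 0.25 each, and the opposite-strand probe differed by 0.02.

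FKBP4 had the opposite sign on different probes. Its brightest probe differed by -0.19 ± 0.10 (SE), with a limma adjusted p of 0.21, whereas the other 2, whose sequences are shown above, were called at 0.35 and 0.32. DNAJB1 was the only gene of the 39 called in both directions: the overlapping probes A_72_P260797 and A_72_P268464 were lower in LW by 0.34 and 0.32 in size, and A_72_P204112 was higher by 0.24. The 2 overlapping probes share 25 bases, all in capitals.
DNAJB1, shared stretch: CAGTCCACAGCAGCTGCTGTTCTCT
No direction can be given for either gene. Of the 21 genes with at least 2 tested probes, all probes had 1 sign in 14.

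The remaining members were not called on the probe used. The HSP90 partners CDC37, which brings kinases to HSP90, PTGES3 (p23), CHORDC1 and STUB1, a ubiquitin ligase, differed by 0.04 to 0.14, with 1 of 2 CDC37 probes called at 0.25. The small HSPs CRYAB and HSPB6 differed by 0.15 and 0.16, HSPB8 by -0.03, HSPB1 by -0.11 and HSPB2 by -0.08. Among J-domain proteins, DNAJA2, DNAJA3, DNAJB2, DNAJB4, DNAJB5, DNAJB6, DNAJC5, DNAJC7 and DNAJC8 lay between -0.09 and 0.14. DNAJC2 was tested only on probes found by current symbols, at 0.09. BAG1, BAG4 and HSPBP1, which release clients from HSP70, were at -0.13, 0.07 and 0.22, and HSF1, HSF2 and HSBP1 at -0.04, -0.04 and 0.12. HSPD1 and HSPE1 differed by -0.09 and -0.005, with 1 of 21 HSPD1 probes called, at -0.14.

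In F1 against CR, DNAJA4 alone was called of the 39 genes on the probe used, or 2.56%, against 3.38% of all tested probes. Its median in F1 was 11.07 and the difference 0.29 ± 0.08 (SE), with a limma adjusted p of 0.041. This call was lost in 14 of the 36 fits that left out 1 pig. CCT3, CCT5 and HSP90AA1 differed on the probes used by 0.13, 0.32 and 0.28, with limma adjusted p values of 0.057, 0.070 and 0.083. On probes not used for the gene, A_72_P669304 of HSP90AA1 was called at 0.44, and A_72_P033311 and O14640 of FKBP4 at 0.33 and 0.27, while the brightest FKBP4 probe differed by -0.06. In F1 against LW no gene was called, against 1.99% of all probes, and 3 genes had an unadjusted p under 0.05, against 13.4% of all probes. One AHSA1 probe, not the one used, was called there, at -0.26. In F1 against the mean of CR and LW no gene was called, against 0.439% of all probes, and 2 genes had an unadjusted p under 0.05, HSPB8 and HSP90AA1, against 10.4% of all probes. These breed comparisons share pigs.

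Some probes fell into separate levels among pigs of the same group. A gap here means at least 0.5 log2 units between neighbouring pigs, with at least 3 pigs on each side. It was present in 2 of the 108 member probes, a share near the 1.38% of all tested probes. On a custom probe of CCT2, 20 pigs lay between 5.72 and 6.18 and 16 between 7.17 and 7.69. The lower level held 7 CR, 6 F1 and 7 LW pigs. The custom probe was much dimmer than the brightest CCT2 probe, which ran from 12.96 to 13.41 over all pigs. On the HSPE1 probe O8477, 4 pigs, 3 F1 and 1 LW, lay between 10.25 and 10.43 and the other 32 between 11.32 and 13.64, while the brightest HSPE1 probe ran from 14.80 to 15.47 over all pigs.

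**Figure D4:**
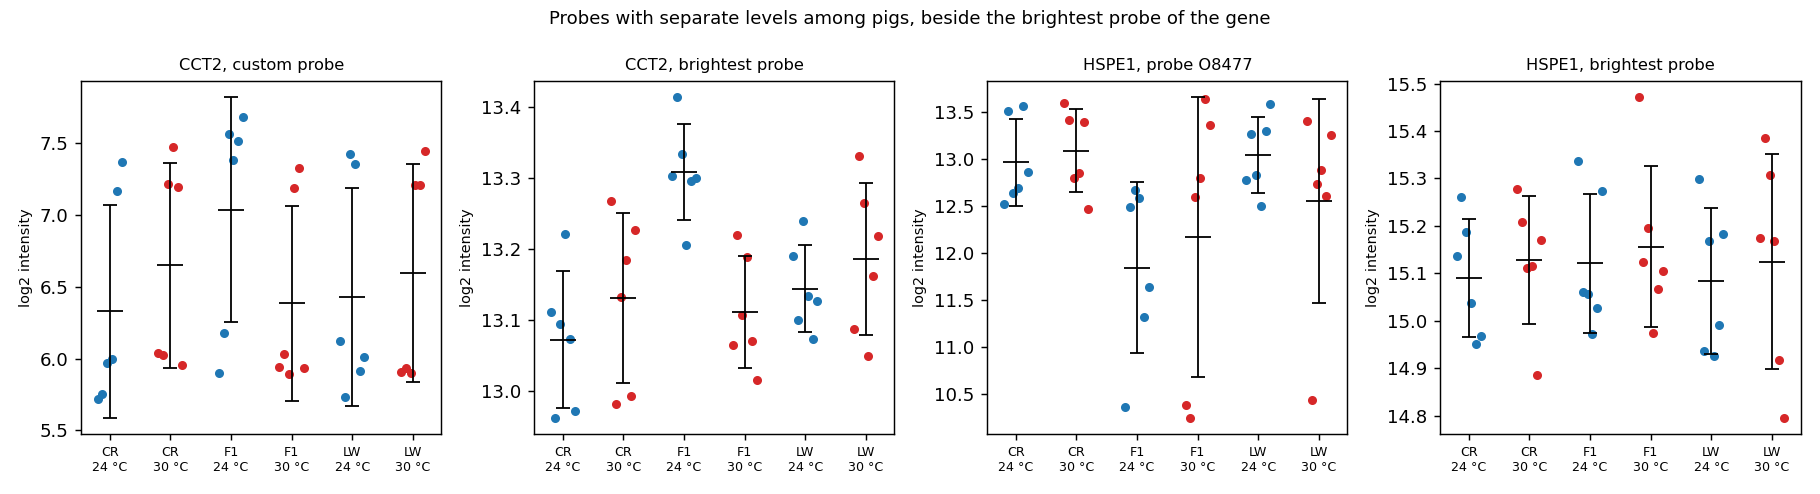
Log2 intensity (vertical axis, a different range in each panel) of each pig in the 6 groups (horizontal axis, blue at 24 °C and red at 30 °C), with group mean and SD (n = 6), for the CCT2 and HSPE1 probes with a gap and the brightest probe of each gene. The CCT2 custom probe shows a lower and an upper level in every group.

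HSPB8, a small HSP that works with BAG3, varied most within groups of the 39 genes, with an SD of 0.49, above that of 95.7% of all tested probes. Its median was 10.34 in CR, 10.96 in F1 and 10.54 in LW, and both its lowest pig, at 9.84, and its highest were CR pigs, at 30 °C. TRAP1 followed with an SD of 0.39. The median SD of the members was 0.16, against 0.18 for all tested probes.

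Relations across the 36 pigs were examined after removing group means, for 15 pairs in all, with permutation tests within groups. A relation was called by the adjusted p of Pearson r, and the adjusted p of Spearman rho is given beside it. HSPB2 and CRYAB, small HSP genes that are neighbours in the pig genome, had r = 0.56 and rho = 0.58, with permutation p values of 0.0013 and 0.0010 and adjusted p values of 0.020 and 0.015. Their probes share no stretch over 6 bases. Without the 2 pigs farthest from the median of HSPB2 r was 0.64. With slide means removed too it was 0.46, with an adjusted permutation p of 0.062, so that the call did not hold within slides. HSPD1 and HSPE1, which are also neighbours, had r = 0.44 and rho = 0.46, with permutation p values of 0.019 and 0.0097 and adjusted p values of 0.096 and 0.048. With slide means removed too their r was 0.50, with an adjusted permutation p of 0.062. HSP90AA1 and DNAJB1 had r = 0.48 and rho = 0.50, with adjusted permutation p values of 0.082 and 0.037. HSP90AA1 with the HSP70 genes HSPH1 and HSPA8 had r = -0.10 and 0.01.

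Muscle is rich in small HSPs, so HSPB1, HSPB2, HSPB6, HSPB8 and CRYAB were set against muscle markers. None of the 10 relations passed the permutation test after adjustment, and r ran from -0.22 to 0.24. With slide means removed too, r ran from -0.32 to 0.36, and again none passed. The highest was HSPB6 with skeletal muscle, at an adjusted permutation p of 0.065. The mean of 20 skeletal muscle markers lay between 8.42 and 9.17 in all pigs, and 4 of them were called between LW and CR, ACTA1 and TNNT1 higher in LW and TCAP and ENO3 lower. Of 7 smooth muscle markers 3 were called higher in LW, with a median difference of 0.25, and of 6 adipocyte markers 4 were called lower, with a median difference of -0.57. Of 6 endothelial markers 3 were called higher in LW. Of all tested probes 12.9% were called between LW and CR. The part of these marker differences in the breed differences of the chaperones was not tested. In bulk tissue, fewer cells of a type and less RNA per cell cannot be told apart.

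Other genes of the folding machinery were counted from lists. Of all tested probes 1.18% were called with heat and 12.9% between LW and CR, and the counts below are to be read beside these shares. Of 10 tested HSP70 and HSP110 genes none was called with heat on the probe used, and HSPA1L, HSPA2 and HSPA4 were called lower in LW. The study itself reported HSP70 and HSP110 as differentially expressed in thyroid, with HSP70 lower in heat, from a model with random terms. HSPA1A and HSPA1B had no named probe and are not among the 10, and the other probes of the tested genes were not examined here. Of 12 other HSP90 partners none was called with heat, and TSC1 was lower in LW. Of 8 other TCP1 and prefoldin subunits none was called with heat, and PFDN4 and PDRG1 were higher in LW. Of 17 other J-domain and BAG proteins DNAJC11 was called higher at 30 °C and DNAJC19 lower in LW. Of 9 genes of mitochondrial quality control, and of 1 other small HSP or heat shock factor, none was called in either comparison. By contrast 4 of 6 markers of dividing cells, TOP2A, CDK1, CCNB1 and RRM2, were called lower at 30 °C, with a median difference of -1.22.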

How the data were processed

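The authors hybridized Cy3-labelled thyroid cRNA from each pig to an Agilent array and read it with Agilent Feature Extraction 10.10.1.1, per the labels. The deposited scanner files hold intensity values per spot, and the deposited series matrix holds log2 values that the authors normalized. Here the median intensity was quantile-normalized and taken as log2 with the spots of a probe averaged, and this differed from the authors' log2 values by a median of 0.0056. Control spots were left out. limma 3.58.1 in R 4.3.3 was fitted to all 36 arrays, with breed and temperature as additive terms, or with 6 group means for changes within breeds and the interaction, and p-values were adjusted over all 46222 tested probes. The random terms of the study could not be fitted from the labels. The fit was checked on simulated data. Correlations used 100000 permutations within groups. The rule for named genes took every called member, the 5 smallest p values for heat and 9 listed genes. The members and lists were chosen with earlier results of these data known. Alternatives covered scaling, background, filters, slide and position blocks, probe choice, gene matching and leaving out each pig. The number of arrays limits precision.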

Additional observations from a re-analysis of the deposited data

Results flagged for a closer look

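Among 16 named genes, 96 groups of 6 pigs were examined for 1 pig far from the other 5, and 7 groups held one; chance alone gives about 5% of groups. Replicate 4 of F1 at 24 °C was at 12.92 for CCT5, against 13.38 to 13.55 in the others, and at 8.37 for TRAP1, against 9.44 to 10.05. Replicate 3 of LW at 24 °C was at 11.40 for DNAJA4, against 11.02 to 11.15. Replicate 6 of CR at 30 °C was at 13.53 for DNAJB1, against 13.23 to 13.30. Replicate 2 of LW at 30 °C was at 6.47 for DNAJB4, against 5.93 to 6.05. Replicate 1 of F1 at 30 °C was at 6.13 for HSP90AB1, against 6.33 to 6.43. Replicate 2 of F1 at 24 °C was at 13.05 for HSPB1, against 13.44 to 13.55.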

How the results depend on the processing

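The count of members called with heat over the breeds stayed at 0 under every alternative run, and that between LW and CR stayed between 6 and 8 when each pig was left out and was 4 with either 75th percentile scaling and 8 with the mean of all probes of a gene. No paired analysis was possible because the replicate numbers follow the order of the samples and pair no pigs. In F1 against CR the count of 1 became 0 with the processed signal scaled on the 75th percentile, without a filter on dim probes and with a block for position, 2 with the slide as a fixed or a random block, and 4 with the mean of all probes of a gene, and it ranged from 0 to 3 when each pig was left out. Within F1 the heat count of 0 ranged from 0 to 1 when each pig was left out, and was 1, FKBP4, without 2 pigs that were singled out in an earlier analysis, replicate 3 of CR at 30 °C and replicate 4 of F1 at 24 °C, an alternative chosen after seeing the data. The count of relations called by Pearson r, 1, became 3 with the processed signal and 0 with slide means removed. With the processed signal HSP90AA1 and DNAJB1 had adjusted permutation p values of 0.033 for r and 0.12 for rho, so that this count depends on the coefficient. The cause of these shifts was not tested. With the processed signal CCT3 and CCT5 were not called between LW and CR, at limma adjusted p values of 0.33 and 0.078, while AHSA1, BAG3, DNAJA4 and TRAP1 were. By median in CR the dimmest tested members were DNAJB5, DNAJB4, BAG4, DNAJC8 and the opposite-strand HSP90AB1 probe.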
